A study of Homo sapiens with 6 samples.

Results

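The Hippo pathway restrains growth by keeping the transcriptional coactivator YAP, encoded by YAP1, out of the nucleus, and 10 genes of the YAP-TEAD axis (the factors and targets of theirs) were followed here in ovarian cancer cells. They were chosen by symbol from the 34811 genes of the count table: CTGF, CYR61, ANKRD1, AMOTL1, AMOTL2, LATS2, AXL, YAP1, TEAD1 and TEAD4. OVCAR-3, a human ovarian carcinoma line, had been transfected with a pRS HuSH-29 plasmid carrying either an shRNA against COX-1, the cyclooxygenase encoded by PTGS1 (OV3/COX1KD), or a scrambled shRNA (OV3/SCR). Both conditions shared the vector backbone, puromycin selection and medium (RPMI-1640 with serum), and each was a single clone (OV3/COX1KD clone 2 and OV3/SCR clone 1) sampled at 3 independent passages. Since each condition was 1 clone, an effect of the knockdown and a difference between clones cannot be told apart, and p-values measure the spread between passages of a clone.

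In the Hippo pathway the kinases MST1 and MST2 (STK4 and STK3), with the adaptor SAV1, activate LATS1 and LATS2, which with MOB1 phosphorylate YAP and its paralog TAZ (WWTR1) and hold them in the cytoplasm. Unphosphorylated YAP and TAZ enter the nucleus and bind the TEAD factors, which contact DNA but need a coactivator to turn genes on. CTGF, CYR61 and ANKRD1 are the targets most often used to read YAP activity, AXL and AMOTL2 are further targets, and LATS2 and the angiomotins are both outputs of and brakes on YAP. In ovarian carcinoma YAP is known as a growth-promoting factor. YAP activity is set largely by phosphorylation and location of the protein, which RNA-seq does not measure.

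The 6 libraries held 25291505 to 27391538 counts. The targeted gene PTGS1 had 713, 658 and 641 counts in OV3/SCR and 456, 486 and 501 in OV3/COX1KD, a log2 fold change of -0.45 (SE 0.057, FDR = 1.3e-06). All 8 ovarian carcinoma epithelial markers, among them PAX8, WT1 and MUC16, were above 3 counts in every library (2469 to 62802 counts), and their summed level, as TMM-normalized read counts scaled to library size (CPM), was 4657 to 4687 CPM in OV3/SCR and 6005 to 6182 CPM in OV3/COX1KD. KRT8 alone had a mean of 1502 CPM in OV3/SCR and 2360 CPM in OV3/COX1KD. The markers did not move together, as 6 were higher and 2 lower, PAX8 (log2 fold change -0.76, FDR = 4.3e-13) and KRT7 (-0.14). All 8 had FDR under 0.01, as did 47.9% of all tested genes. Of 12 markers of fibroblasts, endothelium and leukocytes 11 were analysed, no library had more than 52 counts of any, and they summed to 2.85 to 3.75 CPM in OV3/SCR and 3.39 to 3.62 CPM in OV3/COX1KD. OV3/COX1KD replicate 2 stood apart from the other passages of its clone: chi-square per degree of freedom over genes was 4.81 and 6.28 against them and 1.89 between those, while pairs across conditions lay at 45.8 to 60.6. It is named below where it moved a result. Without it 8989 genes differed between conditions at FDR under 0.01, against 8293 with all 6 libraries. Leaving out any other library gave 7124 to 7401. Smaller FDRs without OV3/COX1KD replicate 2 were therefore not particular to the genes named here.

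All 10 genes passed the filter on low counts, and 9 passed the test for a difference (FDR under 0.01), 5 higher and 4 lower in OV3/COX1KD cells. Of all 17309 tested genes 47.9% passed, 25.8% higher and 22.1% lower. This share was not matched for read depth, and genes with many counts can pass at small fold changes. TEAD1, with 5774 to 6939 counts in a library, passed at a log2 fold change of 0.12. The same limit holds for the shares of the gene lists below. The median log2 fold change of the 10 genes was 0.13, against -0.0087 over all tested genes. ANKRD1, CYR61, AXL and TEAD4 were lower, AMOTL2, YAP1, AMOTL1, CTGF and TEAD1 were higher, and LATS2 missed the threshold. Fold changes ran from -1.90 for ANKRD1 to 0.48 for AMOTL2 on the log2 scale, so the genes moved in both directions. ANKRD1 alone of the 10 also had a fold change above 2.5, which the study required as well, and 3.92% of tested genes met both limits (1.58% higher and 2.34% lower). The 3 genes ANKRD1, CYR61 and AXL were called with a log2 fold change beyond 0.5 in size, as were 19.9% of tested genes. Levels in the libraries of the conditions did not overlap for 9 of the 10 genes (all but AMOTL1), 5 higher and 4 lower, against 63.2% of tested genes (32.5% higher and 30.7% lower). In bulk RNA, fewer cells expressing a gene and less RNA per cell cannot be told apart.

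**Figure D1:**
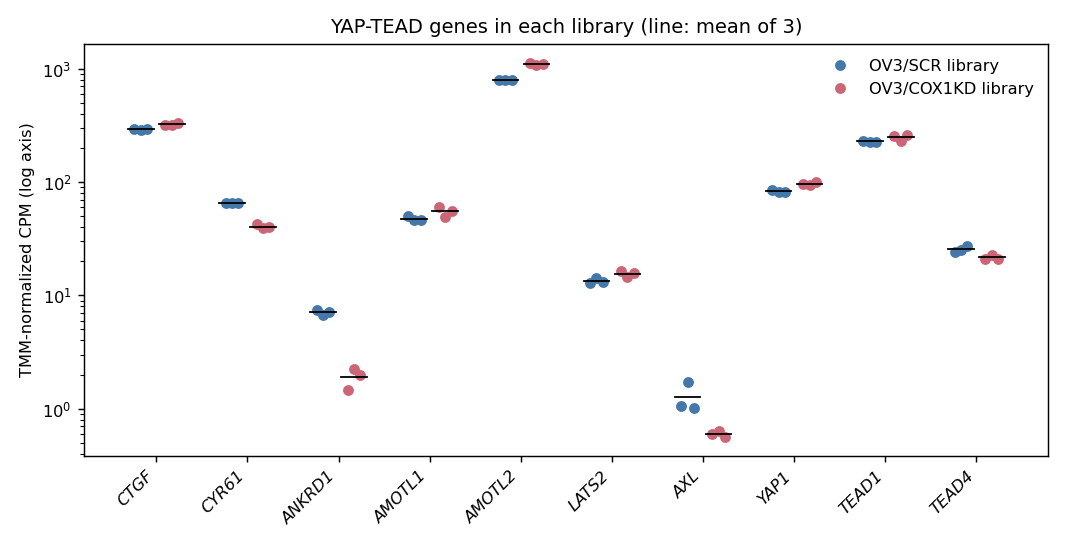
Level of each of the 10 genes in each library, as TMM-normalized CPM on a log axis, with OV3/SCR in blue, OV3/COX1KD in red and a line at the mean of 3 libraries. The largest gap is that of ANKRD1, from 6.72 to 7.47 CPM in OV3/SCR to 1.47 to 2.23 CPM in OV3/COX1KD, while the libraries of AMOTL1 overlap.

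TEAD factors bind the sequence CATTCC, which reads GGAATG on the other strand, and this motif was sought in promoter windows of RefSeq from 250 bases before to 50 bases after the transcription start. Windows were at hand for 7 of the 10 genes, 9 windows in all (AMOTL2 and AXL had a pair of starts each), with none given for CYR61, TEAD1 and TEAD4. The motif on either strand lay in a window of 6 of the 7 genes (6 of 9 windows), all but AMOTL1, and in 14% of all 35116 windows of that length. The longer form ACATTCC, which contains the first, lay in windows of CTGF, AMOTL2 and YAP1 and in 3.46% of all windows. CTGF held 3 matches, at -169, -104 and -95 from the start, a number reached by 0.128% of all windows, and ANKRD1 held 2, at -220 and -128, a number reached or passed by 1.37%. AMOTL2 had a match at -69 of its second start, AXL at -212 of its second start, YAP1 at -162 and LATS2 at position 10 after the start. A match of letters is a description and not a shown binding site.

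The 250 bases before the start are printed for CTGF and ANKRD1, which had the most matches, and for the second start of AMOTL2, the gene that rose most; capitals mark CATTCC or GGAATG. Sequences are RefSeq's, written 5′ to 3′ on the gene's strand, and were placed in GRCh37 by an exact match at chr6:132272513-132272762 (minus strand) for CTGF, chr10:92680845-92681094 (minus strand) for ANKRD1 and chr3:134093290-134093539 (minus strand) for AMOTL2. The AMOTL2 stretch overlaps annotated AMOTL2 exons by 113 and 115 bases, in transcripts whose coding sequence is not defined. Those of CTGF and ANKRD1 lie outside annotated exons.
CTGF: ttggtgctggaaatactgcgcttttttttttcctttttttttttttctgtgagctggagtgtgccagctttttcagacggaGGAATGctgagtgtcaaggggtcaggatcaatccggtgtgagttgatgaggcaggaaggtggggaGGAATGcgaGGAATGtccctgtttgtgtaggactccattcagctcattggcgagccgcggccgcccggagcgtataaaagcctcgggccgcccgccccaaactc
ANKRD1: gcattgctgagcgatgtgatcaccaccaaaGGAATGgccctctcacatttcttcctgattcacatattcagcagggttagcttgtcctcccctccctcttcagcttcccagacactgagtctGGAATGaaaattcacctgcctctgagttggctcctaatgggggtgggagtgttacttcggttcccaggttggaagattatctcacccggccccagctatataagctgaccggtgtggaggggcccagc
AMOTL2: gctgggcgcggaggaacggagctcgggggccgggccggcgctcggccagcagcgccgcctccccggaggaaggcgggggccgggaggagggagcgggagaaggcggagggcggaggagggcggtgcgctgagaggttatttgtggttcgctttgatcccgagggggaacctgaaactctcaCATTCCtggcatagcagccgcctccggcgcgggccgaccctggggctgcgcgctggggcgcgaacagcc
CTGF and ANKRD1, the genes with the most matches, differed in direction: CTGF was slightly higher and ANKRD1 much lower in OV3/COX1KD, as given next.

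**Figure D2:**
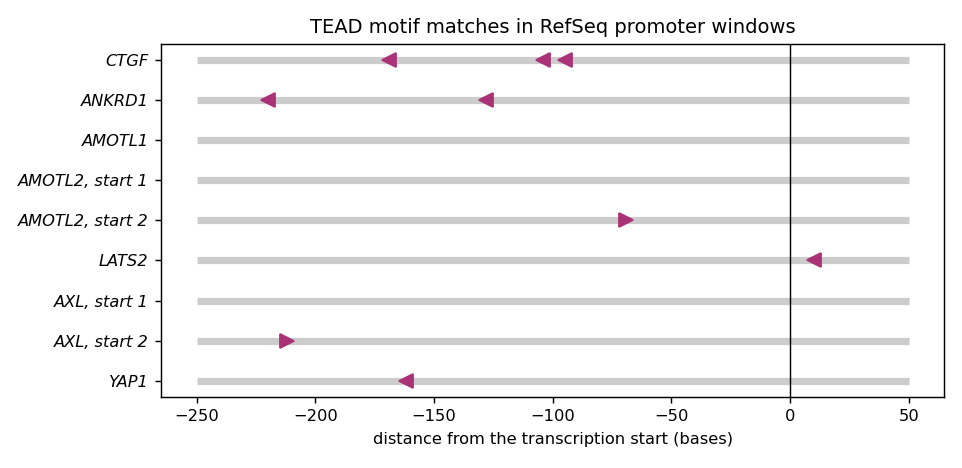
Matches of CATTCC (triangles, pointing right on the gene's strand and left on the other) in each RefSeq promoter window (grey bars), by distance from the transcription start in bases. Matches fall in 6 of 9 windows, and CTGF has 3, of which the pair at -104 and -95 is 9 bases apart.

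CTGF and CYR61 encode secreted matricellular proteins of the CCN family that bind integrins. CTGF (ENSG00000118523, GRCh37 chromosome 6, 132269316 to 132272512, minus strand) had 294, 286 and 293 CPM in OV3/SCR and 320, 316 and 330 CPM in OV3/COX1KD. Every OV3/COX1KD library lay above every OV3/SCR library, but the distance was small. The level was 1.11-fold higher in OV3/COX1KD, with a log2 fold change of 0.15 (SE 0.029, 95% interval 0.085 to 0.21, FDR = 2.5e-04). This call rested on normalization, since with libraries scaled to total counts the log2 fold change was 0.069 with FDR = 0.0549. An opposite-strand long noncoding RNA, LINC01013, covers 11.9% of the exon length of CTGF, and without strand its reads cannot be told apart.

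CYR61 (ENSG00000142871, chromosome 1, 86046444 to 86050272, plus strand) went the other way. It had 65.1, 65.4 and 65.5 CPM in OV3/SCR and 42.4, 39.3 and 39.8 CPM in OV3/COX1KD, with a wide gap between the conditions. In OV3/COX1KD the level was 62% of that in OV3/SCR (log2 fold change -0.69, SE 0.042, 95% interval -0.78 to -0.60, FDR = 2.9e-11), and it stayed called under all 12 alternatives. Within a library, the CYR61 to CTGF ratio per exon length was 0.14, 0.145 and 0.141 in OV3/SCR and 0.0838, 0.0785 and 0.0764 in OV3/COX1KD. The ratio does not depend on how libraries are scaled, and its log2 difference was -0.84. An exact two-sided permutation test gave p = 0.1, the smallest that 3 against 3 libraries allow, for this and for each of the 4 other ratios given below, and 0.1 after adjustment over the 5.

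ANKRD1, a nuclear and sarcomeric ankyrin repeat protein known from stretched muscle, fell most (ENSG00000148677, chromosome 10, 92671853 to 92680844, minus strand). Its counts were 199, 175 and 184 in OV3/SCR and 37, 56 and 53 in OV3/COX1KD, that is 7.10 ± 0.375 and 1.90 ± 0.390 CPM (SD, n = 3). The lowest OV3/SCR library was well above the highest OV3/COX1KD library. ANKRD1 was 3.73-fold lower (log2 fold change -1.90, SE 0.14, 95% interval -2.19 to -1.61, FDR = 5.3e-10), and no annotated gene shares its exons. Leaving out each library in turn gave log2 fold changes from -2.02 to -1.75.

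AXL, a receptor tyrosine kinase of the TAM group activated by GAS6, had the fewest counts of the 10 genes (ENSG00000167601, chromosome 19, 41725128 to 41767671, plus strand). It had 28, 45 and 26 counts in OV3/SCR and 15, 16 and 15 in OV3/COX1KD. All OV3/COX1KD libraries were below all OV3/SCR libraries, among which replicate 2 was high. The log2 fold change was -1.07 (SE 0.28, 95% interval -1.65 to -0.48, FDR = 0.00287). The call was lost without OV3/SCR replicate 2 (-0.77, FDR = 0.0312), without OV3/COX1KD replicate 3 (-1.02, FDR = 0.0133) and with DESeq2 (-1.06, FDR = 0.0212).

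The angiomotins tether YAP at cell junctions and help to activate LATS kinases. AMOTL2 (ENSG00000114019, chromosome 3, 134074189 to 134094321, minus strand) had 787, 788 and 791 CPM in OV3/SCR and 1129, 1068 and 1106 CPM in OV3/COX1KD. The OV3/SCR libraries were almost equal, and every OV3/COX1KD library was far above them. AMOTL2 was 1.4-fold higher, with a log2 fold change of 0.48 (SE 0.028, 95% interval 0.42 to 0.54, FDR = 1.8e-11), and it stayed called under all 12 alternatives. A processed pseudogene on the same strand, RPL39P5, shares 2.89% of its exon length.

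AMOTL1 (ENSG00000166025, chromosome 11, 94439597 to 94609913, plus strand) had 50.2, 46.0 and 45.8 CPM in OV3/SCR and 60.7, 48.9 and 55.7 CPM in OV3/COX1KD. The conditions overlapped, with OV3/COX1KD replicate 2 below OV3/SCR replicate 1. AMOTL1 had a log2 fold change of 0.22 (SE 0.060, 95% interval 0.093 to 0.35, FDR = 0.00412). The call was lost with total count scaling (0.14, FDR = 0.0445) and without any one of OV3/SCR replicates 2 and 3 and OV3/COX1KD replicates 1 and 3 (0.15 to 0.21, FDR from 0.0154 to 0.043), while without OV3/COX1KD replicate 2 the fold change was 0.30 (FDR = 1.0e-08). The AMOTL2 to AMOTL1 ratio per exon length was 24.3, 26.5 and 26.7 in OV3/SCR and 28.8, 33.8 and 30.7 in OV3/COX1KD, higher in every OV3/COX1KD library (log2 difference 0.27, exact permutation p = 0.1).

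LATS2, the kinase that phosphorylates YAP and is itself a YAP target (ENSG00000150457, chromosome 13, 21547175 to 21635725, minus strand), had 12.8, 14.1 and 13.0 CPM in OV3/SCR and 16.3, 14.4 and 15.7 CPM in OV3/COX1KD. The conditions did not overlap, but OV3/SCR replicate 2 and OV3/COX1KD replicate 2 nearly met. The log2 fold change was 0.22 (SE 0.071, 95% interval 0.073 to 0.37), and FDR = 0.0116 missed the threshold. The gene passed without the filter on low counts (0.24, FDR = 0.00498), without OV3/SCR replicate 2 (0.27, FDR = 0.00992) and without OV3/COX1KD replicate 2 (0.27, FDR = 0.0012).

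Its paralog LATS1 was at 36.5 ± 1.93 CPM in OV3/SCR and 31.2 ± 3.17 CPM in OV3/COX1KD (SD, n = 3), a log2 fold change of -0.23 (SE 0.063, FDR = 0.00439). The LATS1 call was lost with DESeq2 (-0.21, FDR = 0.0208) and without any one of OV3/SCR replicates 2 and 3 and OV3/COX1KD replicates 1 and 2 (-0.23 to -0.15, FDR from 0.0119 to 0.0451). The LATS2 to LATS1 ratio per exon length was 0.554, 0.552 and 0.545 in OV3/SCR and 0.783, 0.784 and 0.695 in OV3/COX1KD. The balance of the kinases lay further toward LATS2 in every OV3/COX1KD library (log2 difference 0.45, exact permutation p = 0.1), while the sum of both was 6.66 ± 0.352 and 6.43 ± 0.507 CPM per kb (SD, n = 3).

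YAP1 itself (ENSG00000137693, chromosome 11, 101981178 to 102104155, plus strand) had 84.6, 81.7 and 82.4 CPM in OV3/SCR and 96.2, 94.3 and 100 CPM in OV3/COX1KD. The conditions did not overlap. YAP1 was 1.17-fold higher, with a log2 fold change of 0.23 (SE 0.036, 95% interval 0.15 to 0.30, FDR = 2.1e-05), and stayed called under all 12 alternatives. An opposite-strand long noncoding RNA covers 9.95% of its exon length.

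WWTR1, which encodes TAZ, rose more than YAP1. It had 3585, 3418 and 3371 counts in OV3/SCR and 5432, 5318 and 6034 in OV3/COX1KD, with no overlap, and a log2 fold change of 0.72 (SE 0.033, FDR = 3.6e-13). WWTR1-AS1 on the opposite strand covers 9.05% of its exons. The YAP1 to WWTR1 ratio per exon length was 0.833, 0.824 and 0.837 in OV3/SCR and 0.59, 0.588 and 0.587 in OV3/COX1KD (log2 difference -0.50, exact permutation p = 0.1). The summed level of both coactivators was 28.9 ± 0.492 CPM per kb in OV3/SCR and 41.5 ± 1.39 in OV3/COX1KD (SD, n = 3), and the share of YAP1 in it went from 45.2 to 45.6% to 37 to 37.1%. The exon length used was 8353 bases for WWTR1 and 6311 for YAP1, against 5037 and 5401 in their canonical transcripts. The size of the ratio, the sum and the share therefore depend on the length used. The log2 difference of the ratio does not, since length enters every library as the same factor and cancels.

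Among the TEAD factors, TEAD1 (ENSG00000187079, chromosome 11, 12695968 to 12966284, plus strand) had 229, 227 and 227 CPM in OV3/SCR and 253, 230 and 260 CPM in OV3/COX1KD. OV3/COX1KD replicate 2 lay just above the OV3/SCR libraries, and the other two were clearly higher. The log2 fold change was 0.12 (SE 0.037, 95% interval 0.044 to 0.20, FDR = 0.00855). The call was the least stable of the 9, lost in 9 of 12 alternatives, among them total count scaling (0.044, FDR = 0.313) and the removal of any library other than OV3/COX1KD replicate 2 (0.086 to 0.13, FDR from 0.0236 to 0.0714). Without OV3/COX1KD replicate 2 the fold change was 0.18 (FDR = 8.9e-09).

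TEAD4 (ENSG00000197905, chromosome 12, 3068496 to 3149842, plus strand) had 24.3, 24.9 and 27.4 CPM in OV3/SCR and 21.1, 22.8 and 21.1 CPM in OV3/COX1KD, lower in every OV3/COX1KD library. The log2 fold change was -0.24 (SE 0.060, 95% interval -0.36 to -0.11, FDR = 0.00204). The call was lost with DESeq2 (-0.23, FDR = 0.0166) and without OV3/SCR replicate 3 or OV3/COX1KD replicate 1 or 3 (-0.22 to -0.18, FDR from 0.0107 to 0.0252). TEAD2 and TEAD3 gave log2 fold changes of 0.051 (95% interval -0.057 to 0.16, FDR = 0.413) and 0.058 (-0.063 to 0.18, FDR = 0.405), values that fell below 0 with total count scaling.

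The summed level of the TEAD genes was 53.1 ± 0.309 CPM per kb in OV3/SCR and 54.0 ± 0.237 in OV3/COX1KD (SD, n = 3). Within that sum TEAD4 took 20 to 22.7% in OV3/SCR and 17.1 to 18.6% in OV3/COX1KD, while TEAD1 took 40 to 40.2% and 40 to 45%. The TEAD4 to TEAD1 ratio per exon length was 0.499, 0.514 and 0.569 in OV3/SCR and 0.392, 0.465 and 0.38 in OV3/COX1KD, lower in every OV3/COX1KD library (log2 difference -0.36, exact permutation p = 0.1).

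**Figure D3:**
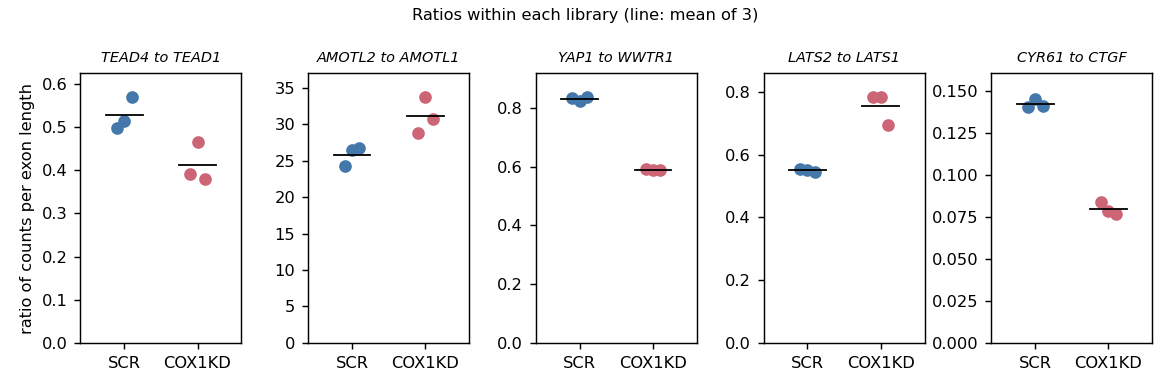
Ratio of a pair of related genes within each library, from counts divided by exon length, with axes from 0, OV3/SCR in blue, OV3/COX1KD in red and a line at the mean of 3 libraries. The conditions do not overlap in any of the 5 ratios, and the YAP1 to WWTR1 libraries lie at 0.824 to 0.837 and 0.587 to 0.59.

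Levels between genes were compared per kb of exon. In OV3/SCR the order was CTGF (124 ± 1.99 CPM per kb, SD, n = 3), AMOTL2 (122 ± 0.304), TEAD1 (21.3), CYR61 (17.7), YAP1 (13.1), TEAD4 (11.2), AMOTL1 (4.72), ANKRD1 (3.97), LATS2 (2.37) and AXL (0.246). In OV3/COX1KD, AMOTL2 (170 ± 4.72) was above CTGF (138 ± 2.90), YAP1 (15.4) above CYR61 (11.0) and LATS2 (2.76) above ANKRD1 (1.06), while AXL (0.117) was again lowest. Libraries of neighbours in either order did not overlap. In OV3/SCR, however, the order of CTGF and AMOTL2, and that of TEAD1 and CYR61, depended on the length used. With canonical transcripts AMOTL2 stood above CTGF and CYR61 above TEAD1.

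**Figure D4:**
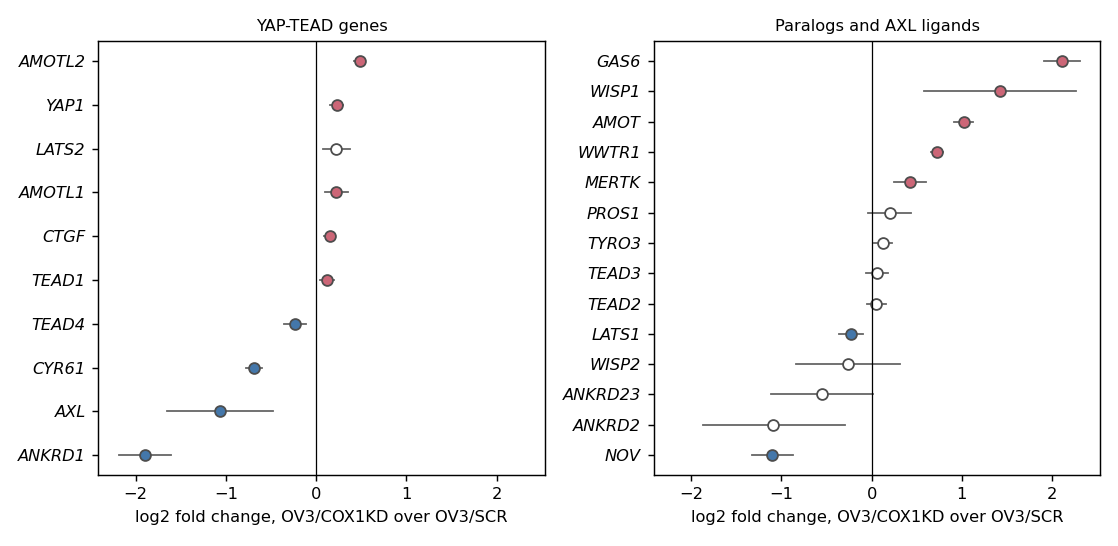
Log2 fold change of OV3/COX1KD over OV3/SCR with its 95% interval for the 10 genes (left) and for their paralogs, GAS6 and PROS1 (right), filled where FDR was under 0.01 (red higher, blue lower) and open where not. The right title groups GAS6 and PROS1 as AXL ligands, although PROS1 is a ligand of MERTK and TYRO3. ANKRD1 at -1.90 and AMOTL2 at 0.48 bound the left panel, and GAS6 at 2.11 tops the right one.

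Of 13 paralogs 12 were tested and 6 passed, 4 higher and 2 lower (50% against 47.9% of all tested genes), and WISP3 was too low to test. AMOT, the founding angiomotin, had 1152, 1157 and 1189 counts in OV3/SCR and 2419, 2062 and 2460 in OV3/COX1KD. Like AMOTL2 it was higher in every OV3/COX1KD library, 2.03-fold on the fitted scale (log2 fold change 1.02, SE 0.050, FDR = 1.3e-12). The angiomotin sum was 132 ± 0.328 CPM per kb in OV3/SCR and 186 ± 6.14 in OV3/COX1KD (SD, n = 3), of which AMOTL2 was 92.3 to 92.5% in OV3/SCR and 90.9 to 91.9% in OV3/COX1KD.

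In the CCN family, NOV had 179, 186 and 192 counts in OV3/SCR and 83, 80 and 91 in OV3/COX1KD, a log2 fold change of -1.10 (SE 0.11, FDR = 4.7e-08). WISP1, with 8, 3 and 6 counts against 18, 11 and 16, had a log2 fold change of 1.42 (SE 0.40, FDR = 0.00513), which lost its call with DESeq2 (1.45, FDR = 0.0434) and without any one of OV3/SCR replicates 2 and 3 and OV3/COX1KD replicates 1 and 3 (1.12 to 1.47, FDR from 0.0169 to 0.0347). WISP2 gave -0.26 (SE 0.27, FDR = 0.423). The CCN sum was 145 ± 2.09 CPM per kb in OV3/SCR and 150 ± 2.99 in OV3/COX1KD (SD, n = 3). CTGF made up 85.5 to 85.9% of it in OV3/SCR and 91.2 to 91.8% in OV3/COX1KD, and CYR61 12 to 12.4% and 7.02 to 7.64%. These shares depend on the length used. In OV3/SCR, CYR61 was at 17.7 CPM per kb with exon length and 28.7 with its canonical transcript, while CTGF was at 124 with both. The ANKRD1 relatives ANKRD2 (-1.09, SE 0.38, FDR = 0.0183) and ANKRD23 (-0.55, SE 0.27, FDR = 0.0854) did not pass, and ANKRD23 shares 73.8% of its exon length with ANKRD39.

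AXL, with 15 to 45 counts in a library and no call with DESeq2 (FDR = 0.0212), fell while the gene of its ligand rose. GAS6, the ligand, had 113, 108 and 102 counts in OV3/SCR and 403, 492 and 469 in OV3/COX1KD, with no overlap, and a log2 fold change of 2.11 (SE 0.096, FDR = 3.6e-13), 4.31-fold higher. GAS6-AS1 on the opposite strand covers 7% of its exons. PROS1, a ligand of the sister receptors MERTK and TYRO3, gave 0.20 (SE 0.11, FDR = 0.137). MERTK rose (0.42, SE 0.085, FDR = 2.7e-04), from 7.50 ± 0.506 to 10.1 ± 0.301 CPM (SD, n = 3), and TYRO3 gave 0.13 (SE 0.048, FDR = 0.026), which passed without OV3/COX1KD replicate 2 (0.17, FDR = 0.00524). AXL was the least expressed of the 3 receptors, at 3.89 to 6.77% of their summed CPM per kb in OV3/SCR and 1.88 to 2.23% in OV3/COX1KD.

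The list of coactivators, TEAD factors and VGLL cofactors, which also bind TEADs, had 10 genes, of which 8 were tested. Of these, 3 were higher (WWTR1, YAP1 and TEAD1) and 1 lower (TEAD4), a share of 50% against 47.9% of all tested genes. VGLL1 gave 0.086 (SE 0.16, FDR = 0.672) and VGLL4 -0.008 (SE 0.047, 95% interval -0.11 to 0.091, FDR = 0.894), the latter sharing 22.2% of its exon length with ATG7. VGLL3, at 4, 1 and 1 counts in OV3/SCR and 1 in each OV3/COX1KD library, was too low to test, and VGLL2 was not analysed here.

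Of 29 Hippo kinases, adaptors and upstream regulators, which include AMOTL1, AMOTL2 and LATS2, 28 were tested and 19 passed, 9 higher and 10 lower (67.9% against 47.9% of all tested genes), with a median log2 fold change of -0.0072. Without those 3 genes, 17 of 25 passed, 7 higher and 10 lower, with a median of -0.044. The list was split in direction. For the whole list, 12 were higher and 9 lower without OV3/COX1KD replicate 2, and 7 higher and 12 lower with total count scaling. Beyond a log2 fold change of 0.5, AMOT and MAP4K1, a kinase that can activate LATS (0.55, SE 0.091, FDR = 3.3e-05), were higher. WWC2, a relative of the scaffold KIBRA (-0.64, SE 0.048, FDR = 8.4e-10), and AJUBA, a LIM protein that inhibits LATS kinases (-0.52, SE 0.035, FDR = 1.6e-10), were lower, and CLDN22 on the opposite strand covers 21.8% of the exons of WWC2.

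A 22-gene YAP/TAZ signature, which shares CTGF, CYR61, ANKRD1, AMOTL2, LATS2 and AXL with the 10 genes, had all 22 tested, 8 higher and 10 lower (81.8% against 47.9%), with a median of -0.066. Of the 16 genes beyond those 6, 13 passed, 6 higher and 7 lower. With total count scaling 4 of the 22 were higher, and over all tested genes the share of calls that were higher went from 53.9% to 41%.

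CCDC80, an extracellular matrix protein, rose most in the signature, from 46.8 ± 1.42 to 236 ± 5.71 CPM (SD, n = 3; log2 fold change 2.33, SE 0.036, FDR = 1.1e-19). FJX1, a secreted homolog of a fly growth regulator, was also higher (0.83, SE 0.036, FDR = 1.5e-13). DOCK5, an exchange factor for Rac, fell most after ANKRD1, from 76.5 ± 3.43 to 29.5 ± 1.44 CPM (SD, n = 3; log2 fold change -1.37, SE 0.047, FDR = 6.6e-15).

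IGFBP3, which binds insulin-like growth factors, fell from 201 ± 2.62 to 109 ± 2.74 CPM (SD, n = 3; log2 fold change -0.89, SE 0.032, FDR = 1.1e-14). The stress-response gene GADD45A (-0.67, SE 0.12, FDR = 1.2e-04), the forkhead factor FOXF2 (-0.59, SE 0.12, FDR = 2.2e-04) and tissue factor, F3 (-0.51, SE 0.10, FDR = 1.9e-04), were lower too. The RNA-binding protein gene RBMS3 was higher (0.52, SE 0.15, FDR = 0.00678) and lost its call with total count scaling (0.45, FDR = 0.0175), DESeq2 (0.54, FDR = 0.0257) and without any one of OV3/SCR replicates 2 and 3 and OV3/COX1KD replicates 2 and 3 (0.43 to 0.54, FDR from 0.0114 to 0.0495).

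**Figure D5:**
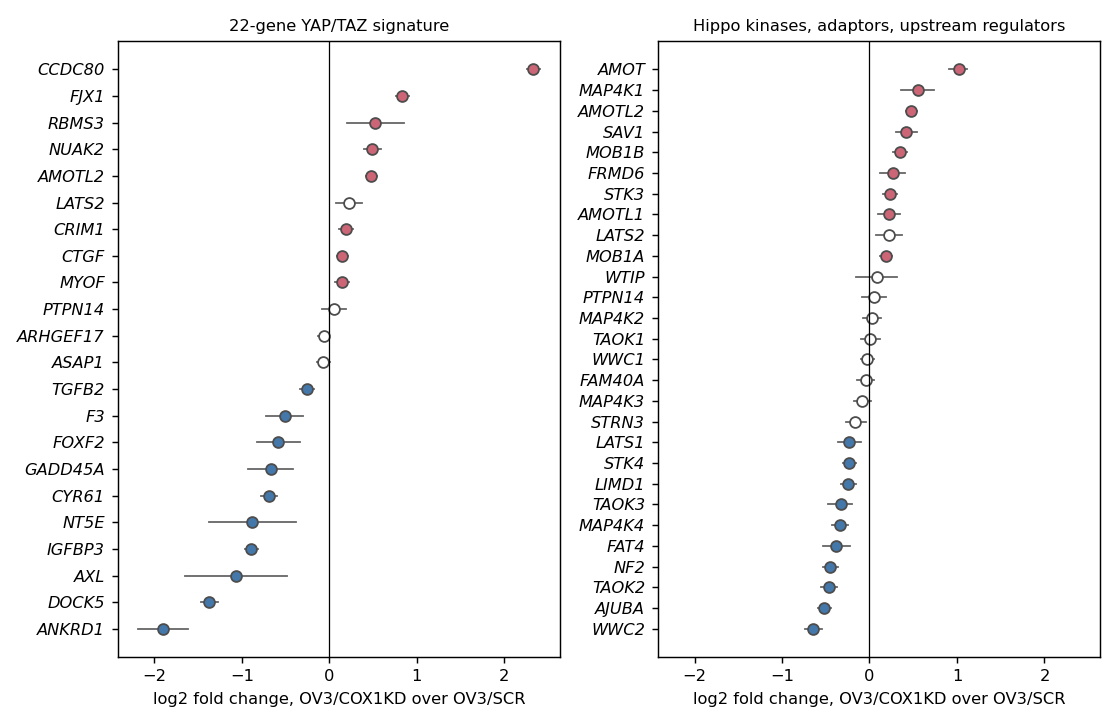
Log2 fold change of OV3/COX1KD over OV3/SCR with its 95% interval for the genes of the 22-gene signature (left) and the tested Hippo regulators (right), filled where FDR was under 0.01 (red higher, blue lower) and open where not. Both lists spread to either side of 0, from -1.90 to 2.33 in the signature and from -0.64 to 1.02 among the regulators.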

How the data were processed

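RNA was measured by RNA-seq (Illumina TruSeq RNA kit, HiSeq2500) in 3 passages each of OV3/SCR and OV3/COX1KD. TopHat2 (2.0 in the submitters' processing notes) had placed the reads on hg19, HTSeq had counted them for each gene, and the authors deposited the raw counts. The gene annotation and the strand setting of the counting are not given in the sources used here.

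The members and gene lists were chosen with earlier results of these data known. Condition and replicate number came from the labels, and clone numbers from the study's text. Counts of 34811 genes entered edgeR 4.0.16 in R 4.3.3 (TMM, filterByExpr, then glmQLFit and glmQLFTest on condition, Benjamini-Hochberg adjustment over 17309 genes). The study required FDR below 0.01 together with more than 2.5-fold; here a gene was called on FDR below 0.01 alone, and the counts that met both are given beside. SE is the fold change over the square root of F. Alternatives were scaling by RLE or by total counts, omitting the filter, requiring 10 counts or more throughout, DESeq2 1.42.0, a block for the replicate number and omitting each library. Canonical transcript length was added after seeing the data, for the levels of the members only. Ratios, family sums and shares are given with exon length alone. All members, PTGS1, the paralogs, coactivators, TEAD and VGLL genes, GAS6 and PROS1 are named. From the other lists, the called genes beyond 0.5 on the log2 scale whose mean log2 CPM reached 1 are named.

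Gene models were GENCODE 44 lifted to GRCh37 (33556 of 34811 genes matched), and promoter windows RefSeq's on GRCh38.p14. A level of 3 counts was 0.113 to 0.12 CPM, and SDs over passages include counting error. Only the edgeR and DESeq2 fits were tested on simulated data. Fewer genes changed there, evenly in both directions and by larger fold changes than most called here. Small fold changes and the choice of normalization were therefore not tested. Protein sequences were not analysed here.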

Additional observations from a re-analysis of the deposited data

How the results depend on the processing

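Of 120 values (10 genes under 12 alternatives each), 95 kept their direction and side of the threshold, 22 lost the call, 3 gained it and none reversed. Total count scaling ended the calls of CTGF (0.069), AMOTL1 (0.14) and TEAD1 (0.044), leaving 2 members higher and 4 signature genes higher. It lowered the median log2 fold change of all genes by 0.078 (median -0.087) and turned TEAD2 to -0.027 and TEAD3 to -0.02. DESeq2 ended the calls of AXL (-1.06), TEAD1 (0.13) and TEAD4 (-0.23), leaving 2 members, 0 coactivator, TEAD or VGLL genes and 1 paralog lower. TEAD1 also lost its call with RLE size factors (0.12) and with at least 10 counts in every library (0.10), and LATS2 gained one with no filter (0.24).

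Leaving out each library gave 3 to 6 members higher and 2 to 4 lower, 0 to 1 coactivator, TEAD or VGLL genes lower and 1 to 2 paralogs lower. Log2 fold changes ranged from 0.15 to 0.30 for AMOTL1, 0.19 to 0.27 for LATS2, -1.20 to -0.77 for AXL, 0.086 to 0.18 for TEAD1 and -0.27 to -0.18 for TEAD4. VGLL4, near 0, turned to 0.014 with no filter, 0.004 with DESeq2, and 0.0086 and 0.015 without OV3/SCR replicate 2 and OV3/COX1KD replicate 2, in a range of -0.022 to 0.015 over the libraries left out. The longer motif lay in windows of 3 members. The causes were not tested.

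Same-numbered libraries did not deviate together (r = 0.00221, 0.0444 and 0.0194 for replicates 1 to 3), so the numbers were not taken as pairs, although the growth protocol speaks of pairs. With the replicate block 9 members were called, 8233 genes in all, and CYR61 had FDR = 7.3e-11. AXL had the fewest counts of the members, 15 to 45 in a library.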
